A study of Homo sapiens with 4 samples.

Results

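The epidermal differentiation complex is a run of skin barrier genes on human chromosome 1, flanked on both sides by genes of the S100 family. The members were chosen by name and place: protein-coding genes between 151.9 and 153.7 Mb (hg38) whose symbols start with S100A, LCE or SPRR, together with FLG, FLG2, HRNR, RPTN, TCHH, IVL and CRNN. This gave 53 genes of 19970 protein-coding genes on chromosomes 1 to 22 and X. No measured value entered that rule, although it was set with earlier results of these data known. From the first base of S100A10 to the last of S100A13 the members span 1.65 Mb (chr1:151982915-153634361), in which 62 of the 42388 CTCF peaks on those chromosomes lay.

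Chromatin immunoprecipitation and sequencing (ChIP-seq) was used to map CTCF in MDA-MB-435, an established human cell line that the labels call melanoma. The series held 2 asynchronous replicates with a rabbit antibody against CTCF and 2 mitotic replicates, held with thymidine and then nocodazole, with a custom rabbit antibody against pT431 CTCF. The values below come from the peak list of asynchronous replicate 1 (19210460 tags), the other 3 samples were not analysed here, and no value has a replicate check. Peaks do not measure expression, so neither the cell type nor the activity of the genes was checked.

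CTCF is a zinc finger protein that binds insulators and the anchors of chromatin loops, and together with cohesin it separates neighbouring stretches of the genome. The genes of the complex arose by repeated local duplication. They are switched on late in keratinocyte differentiation, and their products are cross-linked into the cornified envelope of the outer skin. S100 proteins are small calcium-binding proteins, several of which are widely expressed outside skin. Along the chromosome the members fall into 5 blocks: S100A10 and S100A11; the S100-fused type genes from TCHH to CRNN (6 genes); the late cornified envelope (LCE) genes (19); IVL with the small proline-rich (SPRR) genes (12); and the S100A genes from S100A9 to S100A1 (14).

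The sequences below are shown because they are the places where a peak reached an annotated promoter of a member. RefSeq (GRCh38.p14) listed promoter windows, 250 bases before to 50 after a transcript start, for 50 of the 53 members, 58 windows in all; LCE1B, SPRR2D and SPRR2E had none listed. A peak overlapped 2 of these 58 windows (3.45%), against 13.5% of the 22131 windows of protein-coding genes. The first was that of LCE3A (minus strand), whose 250 bases before the start lie at chr1:152623104-152623353, and the second was that of an S100A13 transcript starting inside the gene (minus strand), at chr1:153627506-153627755. Both run 5′ to 3′ toward the start, and the capitals mark the bases covered by the peak, 120 for LCE3A and 229 for S100A13.
LCE3A: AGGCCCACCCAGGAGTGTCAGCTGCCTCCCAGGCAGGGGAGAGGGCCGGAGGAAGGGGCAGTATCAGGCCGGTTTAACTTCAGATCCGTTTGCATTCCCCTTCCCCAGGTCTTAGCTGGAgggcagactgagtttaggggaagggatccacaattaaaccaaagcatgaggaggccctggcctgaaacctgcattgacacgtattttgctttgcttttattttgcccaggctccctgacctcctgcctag
S100A13: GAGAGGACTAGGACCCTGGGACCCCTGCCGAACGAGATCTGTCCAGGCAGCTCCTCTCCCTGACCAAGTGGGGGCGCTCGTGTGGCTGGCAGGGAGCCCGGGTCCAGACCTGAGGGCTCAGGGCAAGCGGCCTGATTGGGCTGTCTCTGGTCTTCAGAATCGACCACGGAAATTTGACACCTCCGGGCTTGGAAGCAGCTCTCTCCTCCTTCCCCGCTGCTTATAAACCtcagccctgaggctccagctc

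Each window was searched on both strands for a core of the CTCF motif, written as CC, any 3 bases, AG, any 2 bases and GGC. It was found in 2 of the 58 member windows (3.45%, Clopper-Pearson 95% interval 0.420 to 11.9), against 12.4% of all windows of protein-coding genes, 26.5% of those that overlapped a peak and 10.1% of those that did not. Neither of the printed windows held an exact match, and near matches were not counted. The LCE3A window covers 120 of the 349 bp of its peak and not the centre, and the S100A13 window covers 229, so the rest of these peaks was not searched. The matches were in LCE3E (chr1:152566973-152567012, minus strand) and, read on the opposite strand, in SPRR5 (chr1:152947128-152947167, plus strand), shown here with the match in capitals.
LCE3E: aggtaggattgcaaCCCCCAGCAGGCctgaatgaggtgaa
SPRR5: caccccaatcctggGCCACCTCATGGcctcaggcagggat
No peak lay near these matches: the nearest peak centre was 18965 bp from the LCE3E start and 13656 bp from that of SPRR5. The S100A13 window held the letters GGGGGCGC, the last letters of a wider form of the CTCF motif. They began at its base 70, within the part covered by the peak. These letters were looked for after the window had been read. Of the 58 member windows, 1 held them on either strand, against 7.30% of windows of protein-coding genes and 17.3% of those that overlapped a peak.

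Few of these genes had CTCF at an end. A peak centre lay within 1 kb of an annotated end of 5 of the 53 members (9.43%, 3.13 to 20.7), against 28.2% of all protein-coding genes. The members with a peak were FLG2, LCE3A, LCE1F, SPRR1B and S100A1, and the other 48 had none. With a window of 5 kb, 15 of 53 members (28.3%) had a peak, against 52.9% of all protein-coding genes. At annotated transcript starts, 3 of the 50 members with a listed start had a peak within 1 kb, against 26.8% of the protein-coding genes with one. These 3 were LCE3A, S100A1 and S100A13. The intervals treat genes as independent, although neighbours can share a peak, and they cover counting error only. Gene length was not matched: its median was 2.05 kb for members and 24.2 kb for all protein-coding genes. In the shortest genes the windows around both ends overlap, so fewer bases were searched. No test was made, since the data are 1 library and genes are not replicates.

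**Figure D1:**
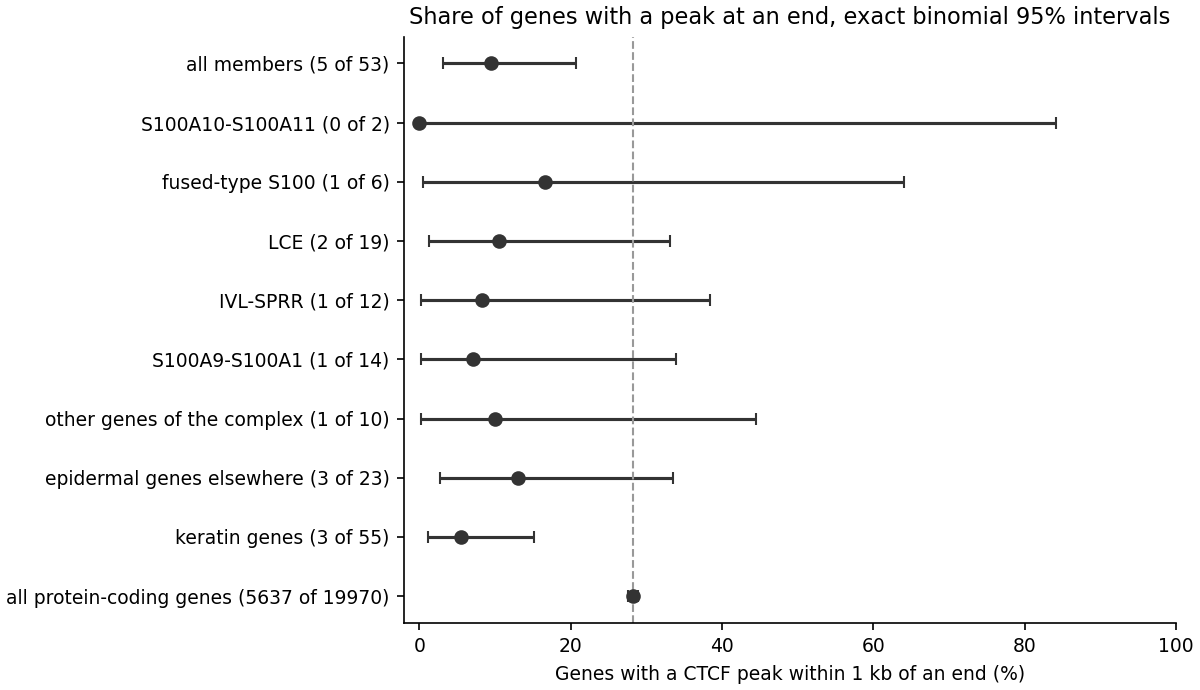
Percentage of genes with a CTCF peak within 1 kb of either end (horizontal axis) for the members, their 5 blocks and related lists, with exact binomial 95% intervals as bars and counts beside each name. The dashed line is the 28.2% of all protein-coding genes, above the 9.43% of all members.

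The 5 peaks at member ends ranged from 13.5 to 58.0 normalised tags, which are tags rescaled to a total of 10000000 per library. FLG2, which encodes a filaggrin-like protein of the cornified layer, had a peak of 13.5 normalised tags (exact Poisson 95% interval 8.84 to 19.8) 64 bp outside its 3′ end (chr1:152348497-152348845). It was the weakest of the 5 and stood 5.60-fold over the surrounding 10 kb, not far above the 4-fold that the peak caller required. At LCE3A, a late cornified envelope gene, the peak lay 305 bp upstream of the start and held 24.2 normalised tags (17.5 to 31.9). LCE1F had a peak 734 bp beyond its 3′ end (chr1:152777584-152777932) with 23.9 (17.5 to 31.9). Before rescaling, both LCE peaks held 46 tags.

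The peak of SPRR1B, a small proline-rich envelope precursor, lay 200 bp beyond the 3′ end (chr1:153032926-153033274). Its height was 32.0 normalised tags (24.3 to 40.8), or 25.01-fold over the surrounding 10 kb. The strongest of the 5, with 58.0 (47.5 to 69.6), lay 733 bp upstream of the start of S100A1 (chr1:153627527-153627875). S100A1 is best known as a calcium-binding protein of muscle, and its gene lies within the annotated bounds of S100A13 on the other strand. The same peak was centred 196 bp upstream of the internal S100A13 start printed above. Of the 5 end peaks, 2 thus lay at a 5′ end (LCE3A and S100A1) and 3 at a 3′ end (FLG2, LCE1F and SPRR1B).

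Just outside the 1 kb window, S100A13 had a peak of 62.5 normalised tags 1042 bp beyond its 3′ end. S100A6 had one of 57.0 at 1297 bp and S100A14 shared the 62.5 peak at 1432 bp. LCE1F at 734 bp and S100A1 at 733 bp were the members just inside.

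Most peaks of the region lay between the genes. Of the 62 peaks, 51 (82.3%, 70.5 to 90.8) lay between protein-coding genes and over 1 kb from any of their ends, against 43.1% of the 3957 peaks of chromosome 1. Another 5 lay inside the annotated bounds of members: 1 in S100A11, 2 in SPRR2G and 2 in S100A8. Those in SPRR2G and S100A8 lay upstream of every listed start of these genes. The nearest was 39711 bp from the listed SPRR2G start and 9328 bp from an S100A8 start. The remaining 6 (9.68%, 3.64 to 19.9) lay at an end, 5 of them at members and 1 at SMCP. Windows of 1 kb around gene ends covered 13.5% of the bases of the span but 3.01% of chromosome 1, where 14.3% of peaks lay at an end. The bases between protein-coding genes made up 72.4% of the span and 53.6% of chromosome 1. End windows thus held a smaller share of the peaks than of the bases in the span, and a larger share on chromosome 1. This difference was not tested.

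**Figure D2:**
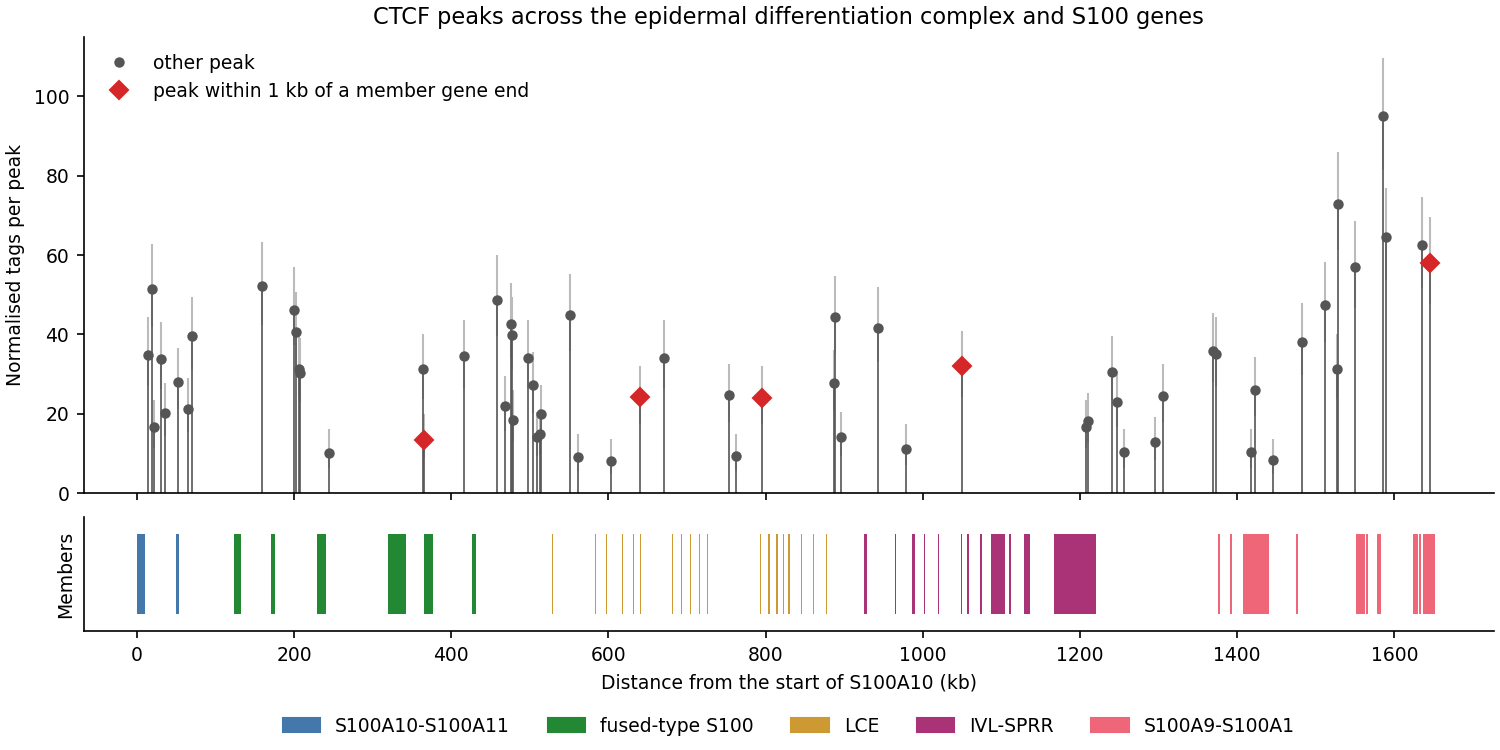
Normalised tags of the 62 CTCF peaks of the span (vertical axis, upper panel; grey bars are exact Poisson 95% intervals) against distance in kb from the start of S100A10, with member genes coloured by block in the lower panel. The 5 red diamonds are the peaks within 1 kb of a member's end, and the highest peaks, up to 95, lie at the right among S100A7 to S100A1.

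The region was nevertheless dense in peaks. It held 3.75 peaks per 100 kb (exact Poisson interval 2.88 to 4.81), against 1.59 on chromosome 1 measured from its first to its last peak. That length of chromosome 1 includes a stretch of 18005 kb without a peak. Neighbouring peaks were a median of 13.3 kb apart, against 31.4 kb on chromosome 1. Of the 61 distances between neighbours, 18 were at most 5 kb (29.5%, against 9.18% on chromosome 1). The Poisson intervals of peak density, here and per block, treat peaks as independent, so runs of close peaks can make them too narrow. The median peak held 30.35 normalised tags, against 21.9 on chromosome 1 and 20.0 in the whole list. The median local background, the normalised tags divided by the fold over the surrounding 10 kb, was 1.79 in the span and 1.53 on chromosome 1. That fold itself was not higher in the span: its median was 12.83, against 13.83 on chromosome 1 and 13.61 over all peaks. The surrounding 10 kb can hold neighbouring peaks, and no control library was named, so extra copies of this region in the cell line cannot be told apart from stronger or denser binding.

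Peaks were unevenly shared among the blocks. The block of S100A10, a partner of annexin A2, and S100A11 held 6 peaks in 54.1 kb (11.09 per 100 kb, 4.07 to 24.1). The fused-type block held 9 in 308 kb (2.92, 1.34 to 5.55), the LCE block 8 in 350.45 kb (2.28, 0.986 to 4.498), the IVL and SPRR block 5 in 295 kb (1.70, 0.551 to 3.96) and the S100A9 to S100A1 block 12 in 277 kb (4.34, 2.24 to 7.58). The interval of the IVL and SPRR block contained the 1.59 of chromosome 1, as did those of the LCE and fused-type blocks. Those of both S100 blocks lay above it. Parts of the S100A9 to S100A1 block differed, when divided after the values were seen. The stretch between S100A7 and S100A6, without a protein-coding gene, held 6.76 peaks per 100 kb (2.20 to 15.8). From S100A9 to S100A7 the density was 2.92 (0.602 to 8.53), and from S100A6 to S100A1 it was 4.01 (1.09 to 10.3). Both of these last intervals contained the 1.59 of chromosome 1.

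The stretches between blocks held the other 22 peaks. Between CRNN and LCE5A, 10 peaks lay in 96.5 kb (10.36 per 100 kb, 4.97 to 19.05) without a protein-coding gene. They ranged from 14.1 to 48.7 normalised tags. The remaining 3 stretches held 2 peaks (S100A11 to TCHH), 3 peaks (LCE7A to IVL) and 7 peaks (SPRR2G to S100A9).

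At the S100A10 end, no peak reached a gene end, although both genes had one within 5 kb. The nearest to S100A10 held 34.9 normalised tags (27.0 to 44.3) and lay 3144 bp upstream of its start. S100A11, a calcium-binding protein of the cell cortex, had a peak of 28.1 (21.1 to 36.7) inside the gene, 2209 bp from its 3′ end. A further 4 peaks lay between S100A10 and S100A11, with 16.7 to 51.5 normalised tags.

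The S100-fused type genes encode large repeat proteins that bundle keratin filaments or reinforce the envelope. All 5 intervals between these neighbours held at least 1 peak, against 49.3% of intervals of any length between neighbouring protein-coding genes genome-wide. These intervals were long: 4 of the 5 measured 30 to 100 kb, a length at which 71.8% of intervals genome-wide held a peak. TCHH (trichohyalin, of the hair follicle) and RPTN (repetin) were separated by 1 peak of 52.3 normalised tags (42.4 to 63.3), which stood 43.1-fold over its surroundings. RPTN and HRNR (hornerin) were separated by 4 peaks of 30.2 to 46.1 normalised tags. The peak between HRNR and FLG was weak, with 10.2 (6.36 to 16.1), 3309 bp upstream of HRNR. The peak nearest to FLG, which encodes filaggrin, lay 22088 bp upstream of its start. The FLG to FLG2 interval held 2 peaks, the one at FLG2 and one of 31.2 normalised tags (23.8 to 40.2) 1408 bp from FLG2. FLG2 and CRNN (cornulin) were separated by 1 peak of 34.6 (26.6 to 43.7), 9984 bp from CRNN.

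The LCE genes, small cysteine-rich envelope proteins, lie close together. Of 16 intervals between neighbouring LCE genes, 3 held a peak: LCE3D to LCE3C, LCE3A to LCE2D and LCE1F to LCE1E (18.75%, against 49.3% genome-wide). Under 10 kb, 1 of 7 LCE intervals did (14.3%), against 18.6% of such intervals genome-wide. These LCE intervals were longer, with a median of 8.72 kb against 2.58 kb. At 10 to 30 kb 1 of 8 LCE intervals held a peak (12.5%), against 47.6%, with medians of 13.5 and 17.7 kb. The peak between LCE3D and LCE3C was the weakest of the span, with 8.07 normalised tags (4.76 to 13.5). The LCE3A to LCE2D interval, where the LCE3 group gives way to the LCE2 group, held the LCE3A peak and another of 34.1 (26.6 to 43.7) 9203 bp upstream of LCE2D. No peak lay from LCE2D through LCE4A: these 5 genes sat in a stretch of 81.7 kb between peak centres. A second stretch of 92.3 kb held 7 LCE genes, LCE1E, LCE1D, LCE1C, LCE1B, LCE1A, LCE6A and LCE7A. The 4 other peaks of this block lay beside non-member genes, 2 between CRCT1 and LCE3E (45.0 and 9.11 normalised tags) and 2 between KPLCE and KPRP (24.7 and 9.37).

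In the IVL and SPRR block, 3 of 11 intervals held a peak, against 49.3% of all intervals genome-wide. By length, a peak lay in 1 of 2 under 10 kb, 1 of 7 of 10 to 30 kb and 1 of 2 of 30 to 100 kb, against 18.6%, 47.6% and 71.8%. IVL, which encodes involucrin, a transglutaminase substrate, was followed by a peak of 41.6 normalised tags (33.0 to 51.8) 14411 bp beyond its 3′ end. SPRR5 and SPRR4 were separated by a peak of 11.2 (7.18 to 17.3). The SPRR1B peak was the boundary of the longest stretch without a peak in the span, 157.5 kb, in which SPRR2D, SPRR2A, SPRR2B, SPRR2E and SPRR2F lay. On chromosome 1, 7.58% of distances between neighbouring peaks were as long or longer. The stretch ended inside the long annotated body of SPRR2G, where 2 peaks of 16.7 and 18.2 normalised tags lay. The 3′ end of SPRR2G and its only listed start also lay within the stretch, the start 39711 bp from the nearest peak. The second longest stretch, 120 kb between HRNR and FLG2, held FLG (12.4% of chromosome 1 distances as long), and the third was that of LCE1E to LCE7A (18.5%).

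**Figure D3:**
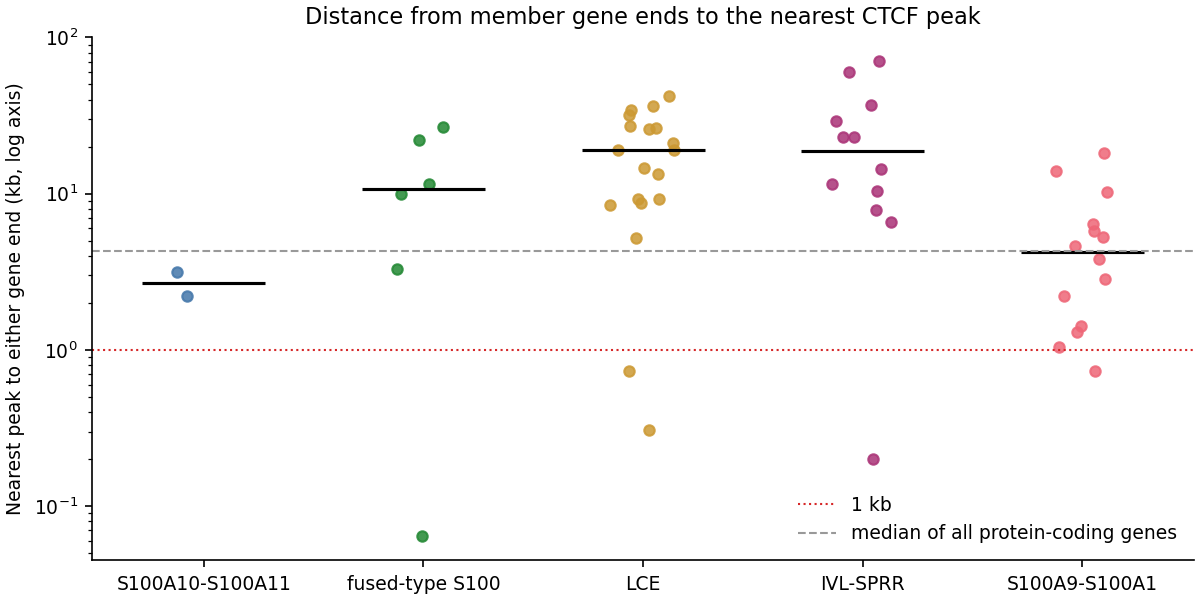
Distance from the nearer end of each member to its nearest CTCF peak (kb, log axis) by block, with 1 point per gene and the block median as a black line. Medians were 19.0 kb for LCE genes and 18.7 kb for IVL and SPRR genes, above the dashed 4.30 kb of all protein-coding genes, and 4.23 kb for S100A9 to S100A1.

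The distance to the nearest peak followed the same division. Its median was 10.3 kb over all members, against 4.30 kb over all protein-coding genes. It was 2.68 kb for S100A10 and S100A11, 10.7 kb for the fused-type genes, 19.0 kb for LCE, 18.7 kb for IVL and SPRR and 4.23 kb for S100A9 to S100A1. The largest was 71.1 kb, at SPRR2F.

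The S100A9 to S100A1 block contains 2 kinds of neighbourhood, divided here after the values were seen. S100A9, S100A12, S100A8, S100A7A and S100A7 form the inflammatory part. S100A8 and S100A9 encode the subunits of calprotectin, and S100A7 is psoriasin, raised in inflamed skin. Just before S100A9 lay 2 peaks of 35.9 and 35.1 normalised tags, the latter 2219 bp upstream of S100A9. From S100A9 to S100A7 there were 3 peaks, with 8.33, 10.4 and 26.0 normalised tags, the latter 2 inside the annotated bounds of S100A8, which overlap those of S100A7A. No peak lay between S100A9 and S100A12 or between S100A12 and S100A8.

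Between S100A7 and S100A6, 5 peaks lay in 73.9 kb, with 31.2 to 72.9 normalised tags. The nearest to S100A7 held 38.0 (29.8 to 47.8) at 5298 bp upstream of its start, and the one nearest to S100A6, the calcyclin gene, held 57.0 (46.6 to 68.4). From S100A6 to S100A1, 4 peaks held 58.0 to 95 normalised tags, all above 34.6, the 75th percentile of the whole list. The highest of the span, 95 (81.5 to 109.55), lay 2855 bp upstream of S100A2, and 1.81% of all peaks held as many tags or more. A further 64.5 (53.7 to 77.0) lay 6842 bp upstream of S100A2. For S100A5, S100A4 (known for its link to metastasis) and S100A3 the nearest peak was the same 57.0 one, at 3845, 10319 and 14027 bp. S100A16 and S100A14 lay in 45.1 kb between the S100A2 peaks and the 62.5 peak beside S100A14.

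Of the 12 peaks from S100A9 to S100A1, 8 (66.7%) were at or above the 75th percentile of normalised tags. The same was true of 4 of 9 in the fused-type block and 2 of 6 around S100A10 and S100A11. It was true of 1 of 8 in the LCE block and 1 of 5 in the IVL and SPRR block. From S100A9 to S100A7 it was true of 0 of 3, between S100A7 and S100A6 of 4 of 5, and beyond of 4 of 4. The share was 25.2% over all peaks of the list and 29.6% on chromosome 1. The median peak held 52.2 normalised tags in the S100A9 to S100A1 block, 31.2 in the fused-type block, 30.95 around S100A10 and S100A11, 24.05 in the LCE block and 18.2 in the IVL and SPRR block. Local background was lowest in the LCE and IVL and SPRR blocks, whose median peaks were also the lowest, but the other 3 blocks did not follow the order of their peaks. The median background was 3.88 normalised tags from S100A6 to S100A1, 2.25 over the whole S100A9 to S100A1 block, 2.41 in the fused-type block and 3.24 around S100A10 and S100A11, against 1.26 in the LCE block and 1.28 in the IVL and SPRR block. Its part in the peak heights and counts was not tested. The median fold over the surroundings was 18.3 for S100A9 to S100A1, 17.035 for LCE and 11.3 for IVL and SPRR. It was 10.6 for S100A10 and S100A11 and lowest, 7.54, for the fused-type block, against 13.6 over all peaks.

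**Figure D4:**
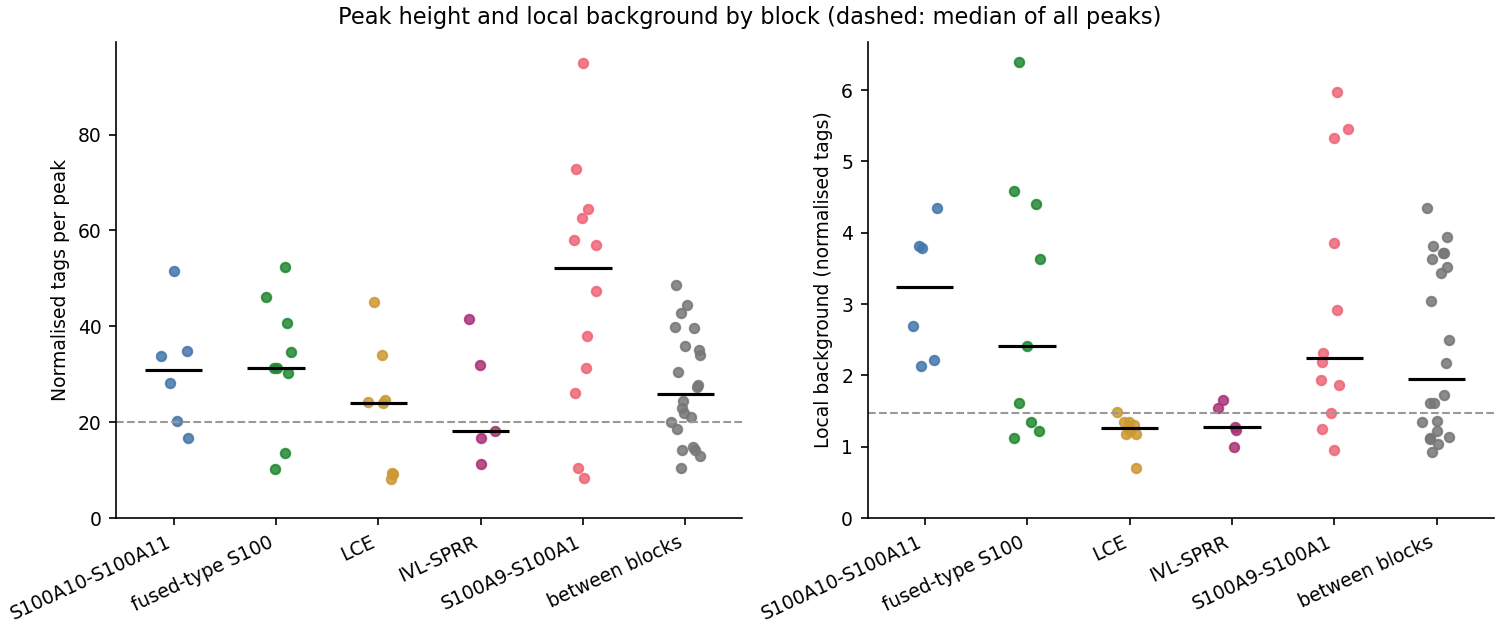
Normalised tags per peak (left) and local background in normalised tags (right) for the peaks of each block and of the stretches between blocks, 1 point per peak, with group medians as black lines and the median of all peaks dashed. The S100A9 to S100A1 block has the highest peaks, and LCE and IVL-SPRR peaks have local backgrounds between 0.697 and 1.65.

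Among the intervals between neighbouring members of a block, those of 30 to 100 kb most often held a peak. Of the 13 intervals under 10 kb between members of a block, 3 held a peak (23.1%, 5.04 to 53.8), against 18.6% of such intervals between neighbouring protein-coding genes genome-wide. Of the 19 intervals of 10 to 30 kb, 3 did (15.8%, 3.38 to 39.6), against 47.6%. Of the 11 intervals of 30 to 100 kb, 10 did (90.9%, 58.7 to 99.8), against 71.8%. The exception was the 30.1 kb between SPRR2F and SPRR2G. The intervals of 10 to 30 kb without a peak were mostly within the LCE block (7 of 8 without one) and the SPRR genes (6 of 7). Lengths within a class were not matched. The median length was 6.65 kb for members and 2.58 kb genome-wide under 10 kb, 14.4 and 17.7 kb at 10 to 30 kb, and 40.3 and 52.3 kb at 30 to 100 kb, so members had the shorter intervals in both longer classes.

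**Figure D5:**
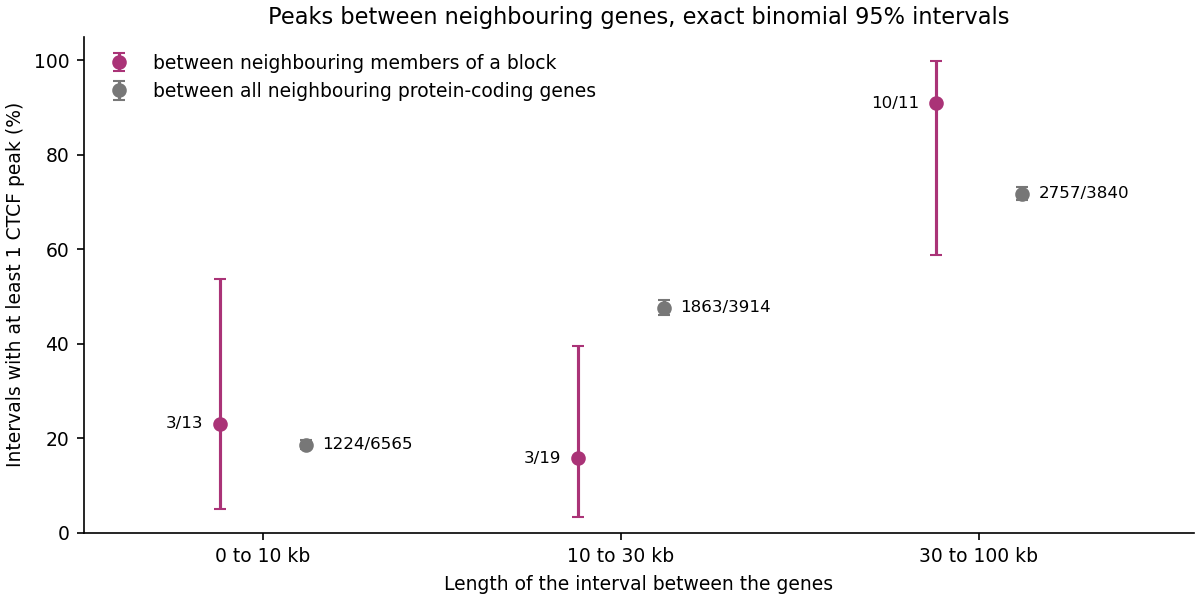
Percentage of intervals between neighbouring genes that hold at least 1 CTCF peak (vertical axis) by interval length, for members of the same block and for all protein-coding genes, with exact binomial 95% intervals and counts beside the points. The 10 to 30 kb class shows 3 of 19 for members and 47.6% for all genes.

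The other genes of the complex, were left out by the naming rule. Of TCHHL1, CRCT1, KPLCE, KPRP, SMCP, LELP1, PRR9, LORICRIN, PGLYRP3 and PGLYRP4, 1 of 10 had a peak at an end. It was SMCP, a sperm mitochondrial protein gene, with 14.1 normalised tags (9.26 to 20.4) 107 bp from its lower-coordinate end. LORICRIN, which encodes the major protein of the envelope, had its nearest peak at 16.0 kb. None of the 4 S100 genes on other chromosomes (S100B, S100G, S100P and S100Z) had a peak at an end, and the nearest was 3669 bp from S100P.

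Among 23 cornified envelope and epidermal genes elsewhere in the genome, 3 had a peak at an end (13.04%, 2.78 to 33.6). They were CDSN, the corneodesmosin gene, with 34.6 normalised tags, KLF4, a transcription factor of barrier formation, with 17.4, and PPL, the periplakin gene, with 10.9. EVPL (envoplakin) fell just outside at 1101 bp, and the envelope cross-linking enzymes TGM1, TGM3 and TGM5 had none. The keratin genes of chromosomes 12 and 17 are another clustered family, counted here whether or not they are epidermal. KRT1, KRT2, KRT5, KRT10 and KRT14 are also among the 23 genes above. A peak lay at an end of 3 of 55 keratin genes (5.45%, 1.14 to 15.1): KRT18, KRT28 and KRT36. That interval overlapped the one of the members, and the difference was not tested. The keratin genes had a median distance of 8.75 kb to the nearest peak, against 10.3 kb for the members.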

How the data were processed

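The authors' deposited list gives the peaks of asynchronous replicate 1 alone, with replicates not pooled. The submitters' processing notes name Bowtie2, HOMER and hg38, with no version given here. Per the file headers, peaks of 349 bp were called with findPeaks in factor style with no control named, at a false discovery rate of 0.001 and 4-fold over the surrounding 10 kb, with a local Poisson p of 1e-04. Each deposited signal value is a peak's tag number rescaled to a library of 10000000 tags. The authors' caller also gave the score, the focus ratio (a fraction of tags), the fold over the local region and the clonal fold (each a ratio), and the p-value against the local region, which was not used here.

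Genes came from RefSeq (GRCh38.p14, the chromosomes of hg38). A gene had a peak where the peak's centre was within 1 kb of either annotated end. Tag intervals are exact Poisson and shares Clopper-Pearson (95%), for counting error only; tag counts may hold repeated positions. Counting was tested on simulated peaks. Alternatives varied the window, peak threshold, gene end, overlap, background genes, block limits, merging and motif. Named were all members with a peak, those in the 3 longest stretches, the genes beside the 10 highest peaks, members next to the window's limit and the alphabetically first member without a peak per block; further members were named after their values were seen. The members and lists were chosen with earlier results of these data known. Software was scipy 1.17.1, pandas 2.3.3 and numpy 2.4.6 under Python 3.11.15, with matplotlib 3.10.9 for plots.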

Additional observations from a re-analysis of the deposited data

How the results depend on the processing

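No paired analysis was possible because only 1 peak list was analysed, and no replicate could be left out. Of 50 alternatives, 31 stayed within 1.5 times of the main count (or, for the background share, within its interval) and 19 did not. The members with a peak at an end, 5 of 53, were 3 with a window of 500 bp (20.4% of all protein-coding genes), 15 with 5 kb, 1 with normalised tags at or above the 75th percentile (10.6% of all) and 3 at transcript starts. With scores at or above the median 4 members were left, against 15.2% of all protein-coding genes. By block, a window of 5 kb gave 2 of 2 for S100A10 and S100A11, 2 of 6 fused-type genes and 8 of 14 from S100A9 to S100A1, against 52.9% of all protein-coding genes. With 500 bp, 1 LCE gene and 0 of the S100A9 to S100A1 genes had a peak, and with scores at or above the median 0 fused-type genes did. Peaks at or above the 75th percentile of tags numbered 23 in the span (37.1%, against 25.2% of all peaks). They numbered 2 for S100A10 and S100A11, 4 for the fused-type block, 1 for LCE and 1 for IVL and SPRR. With scores at or above the median, LCE kept 5 peaks and IVL and SPRR 2. The motif with 1 of its free bases fixed as A was found in 1 member window, and the letters looked for after reading the S100A13 window in 1. These counts are smaller by construction where fewer peaks or bases qualify. At the median of 20.0 normalised tags the precision is low, and binding below the calling threshold gives no value.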

Other observations

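Genes that do not code for protein lay between the members, and 9 of the 31 in the span had a peak within 1 kb of an end (29.0%, 14.2 to 48.0), against 9.64% of the 39124 such genes on all chromosomes. Peak density was not matched: it was 3.75 per 100 kb in the span and 1.44 over all chromosomes. The counts of genes were made after the values were seen and without a test. The strongest peak within 1 kb of such a gene's end held 57.0 normalised tags. It lay 140 bp from the RNA gene LOC124904423, which overlaps S100A6. LOC124904422, an RNA gene between S100A7 and S100A6, had 38.0 normalised tags (29.8 to 47.8) at 161 bp. CCDST, a long RNA gene that runs across HRNR, FLG and FLG2, had a peak of 31.2 (23.8 to 40.2) 531 bp from its lower-coordinate end. Of the pseudogenes of the member families, LCEP1 had a peak of 9.37 normalised tags at 803 bp and S100A7P1 one of 8.33 at 613 bp. Before rescaling these held 18 and 16 tags, near the 15 that the false discovery rate required. LCEP2, LCEP3, LCEP4, SPRR2C, S100A15A, S100A7L2 and S100A7P2 had no peak at an end. Of the 51 peaks between protein-coding genes, 14 lay inside or within 1 kb of a gene that does not code for protein.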
